A study of Homo sapiens with 3 samples.

Results

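The genes described here carry out chromosomal DNA replication and the passage from G1 into S phase. A fixed list of 41 genes chose them, through the gene symbol of each array probe, and 40 of the 41 had at least 1 probe, 61 probes in all of the 48803 on the array. Only POLD2 had none under that symbol. This list and the further lists below were chosen with earlier results of these data known. Their contrasts with all genes are therefore not those of independently chosen lists. The cells were LvM3b, a human colon adenocarcinoma line known as a derivative selected in mice for growth in the liver. The 3 groups, with 1 array each, were control LvM3b cells, LvM3b cells overexpressing miR-483-5p (named miR-483 in the sample label) and LvM3b cells overexpressing miR-551a. All were grown in DMEM with serum and harvested before full confluence. The labels do not say how the microRNAs were overexpressed, whether the cells were clones or pools, or what the control cells carried. No group had a replicate, so each difference below is between 2 cultures, has no error and cannot be tested. Both differences from control share the control array.

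Replication origins are licensed in G1, when CDC6 and CDT1 load the ring of MCM2 to MCM7, the core of the replicative helicase, onto DNA. In S phase CDC45 and the GINS complex join this ring, MCM10 helps to activate it, and primase and the polymerases alpha, delta and epsilon copy the opened strands. The factor complex RFC loads the sliding clamp PCNA, RPA coats single-stranded DNA, and FEN1 and LIG1 finish the lagging strand. Transcription of many of these genes peaks around the G1/S boundary under E2F factors, and in tumour cell lines their mRNA levels are widely used as a readout of proliferation. On an array of bulk RNA, more cells in S phase and more mRNA per cell cannot be told apart.

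Promoters are shown first because transcription at G1/S is the regulation that these genes are best known to share. Each stretch runs 5′ to 3′ from 250 bases before to 50 bases after the annotated start, from RefSeq on GRCh38.p14. The genes are 4 of the 5 measured members with the largest mean difference from control and the 2 with the smallest. Runs of 8 capitals are E2F words (TTTCCCGC, TTTCGCGC, TTTGCCGC or TTTGGCGC on either strand) and runs of 5 capitals are the CCAAT word on either strand. The MCM10 stretch is chr10:13161308-13161607 on the forward strand, GINS3 is chr16:58392221-58392520 on the forward strand, RRM2 is chr2:10122489-10122788 on the forward strand and CDC6 is chr17:40287629-40287928 on the forward strand. MCM3 is chr6:52284693-52284992 on the reverse strand and RFC4 is chr3:186806433-186806732 on the reverse strand.
MCM10: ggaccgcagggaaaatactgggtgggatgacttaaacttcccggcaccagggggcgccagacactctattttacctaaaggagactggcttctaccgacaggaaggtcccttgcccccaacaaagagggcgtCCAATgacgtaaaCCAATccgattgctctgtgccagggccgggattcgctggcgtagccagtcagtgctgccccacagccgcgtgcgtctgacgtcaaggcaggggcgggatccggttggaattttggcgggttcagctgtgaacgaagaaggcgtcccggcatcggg
GINS3: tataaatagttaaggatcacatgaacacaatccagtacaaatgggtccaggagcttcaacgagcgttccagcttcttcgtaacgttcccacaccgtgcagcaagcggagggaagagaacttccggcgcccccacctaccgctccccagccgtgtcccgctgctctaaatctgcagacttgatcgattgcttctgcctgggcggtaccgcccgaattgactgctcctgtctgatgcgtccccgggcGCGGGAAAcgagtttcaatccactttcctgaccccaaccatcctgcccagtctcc
RRM2: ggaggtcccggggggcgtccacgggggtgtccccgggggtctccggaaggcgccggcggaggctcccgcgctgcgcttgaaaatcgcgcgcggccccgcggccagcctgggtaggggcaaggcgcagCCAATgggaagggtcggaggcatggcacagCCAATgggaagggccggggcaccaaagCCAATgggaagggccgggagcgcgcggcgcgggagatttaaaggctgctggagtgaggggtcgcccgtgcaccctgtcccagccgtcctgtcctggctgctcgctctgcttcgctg
CDC6: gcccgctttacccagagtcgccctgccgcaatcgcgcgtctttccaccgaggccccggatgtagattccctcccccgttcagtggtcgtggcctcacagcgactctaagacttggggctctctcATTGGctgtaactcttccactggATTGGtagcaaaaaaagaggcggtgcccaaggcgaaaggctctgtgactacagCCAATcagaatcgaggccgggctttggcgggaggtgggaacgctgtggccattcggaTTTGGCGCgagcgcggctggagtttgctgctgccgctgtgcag
MCM3: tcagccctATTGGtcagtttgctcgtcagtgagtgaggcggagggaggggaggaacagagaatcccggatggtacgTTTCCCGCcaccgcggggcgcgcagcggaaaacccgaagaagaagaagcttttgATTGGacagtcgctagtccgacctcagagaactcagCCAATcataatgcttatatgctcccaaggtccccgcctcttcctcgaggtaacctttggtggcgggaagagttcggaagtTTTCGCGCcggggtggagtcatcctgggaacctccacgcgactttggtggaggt
RFC4: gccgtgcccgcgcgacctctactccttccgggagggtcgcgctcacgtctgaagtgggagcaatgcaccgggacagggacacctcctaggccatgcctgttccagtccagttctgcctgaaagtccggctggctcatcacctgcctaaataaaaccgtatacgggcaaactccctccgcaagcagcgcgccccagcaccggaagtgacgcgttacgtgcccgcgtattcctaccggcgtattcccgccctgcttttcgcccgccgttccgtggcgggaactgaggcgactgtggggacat

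An E2F word lay in 19 of the 35 member promoters found in the RefSeq table (54.3%), against 5.74% of 7642 promoters of measured protein-coding genes and 3.31% of all 35116 promoters of this length. The 35 include members that were not measured, whereas the 5.74% is over measured genes only. Of the measured members with a promoter there, 17 held an E2F word and 15 did not. CCAAT lay in 19 of 35 (54.3%), against 37.9% of the measured protein-coding genes and 34.6% of all. The CHR word TTTGAA, known from genes of G2 and mitosis, lay in 1 of 35, RRM1, against 9.71% and 15.2%. Of the genes with the largest differences, GINS3 had an E2F word beginning 5 bases before the start, or -5, and CDC6 had 1 at position 8, inside the transcribed part. MCM10 and RRM2 held only CCAAT words, RFC4 held neither, and MCM3, one of the members nearest to control, held 2 E2F words. Members with and without an E2F word had similar differences from control: the median log2 difference with miR-483-5p was 0.44 for 17 measured members with the word and 0.46 for 15 without it. The corresponding medians with miR-551a were 0.59 and 0.53. A match is a description of these letters and not of a site.

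The mature sequence of miR-551a, the only overexpressed microRNA of the 2 whose sequence is printed here, is given by RefSeq on GRCh38.p14 at chr1:3560710-3560730 on the reverse strand, with its seed (bases 2 to 8) in capitals.
hsa-miR-551a: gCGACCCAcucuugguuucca

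A probe was called detected where its detection score was above 0.99. The arrays detected between 13291 and 13925 probes, and their median intensity over all probes lay between 84.9 and 88.0. Of 9 colon epithelial markers, 8 were detected in every array, among them CDH17, VIL1 and CDX2, and KRT20 was detected in none. Defining markers of other cells were undetected: PTPRC, CD3E and CD14 for leukocytes, COL1A1, COL1A2 and DCN for fibroblasts, all 3 endothelial markers, and ALB, APOA1 and TTR for hepatocytes. CD68 and 1 SERPINA1 probe were detected in all 3 arrays, COL3A1 in the control and miR-483-5p arrays and LUM in both overexpressing arrays. The brighter LUM probe read 99.5 in control, 141 with miR-483-5p and 199.6 with miR-551a, and the brightest CD68 probe in control 206.0, 281 and 294, so both were higher where the replication genes were higher. COL3A1 went the other way, at 127.3, 118.4 and 99.5, the last below detection. The part of these markers in the differences was not tested.

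Of the 61 member probes, 50 were detected in all 3 arrays, 3 in 1 or 2 arrays and 8 in none. This left 38 of 41 members measured by at least 1 probe. GINS1 and the transcription factor E2F1 were not above the detection threshold in any array: GINS1 read 79.0, 98.7 and 86.3 in the control, miR-483-5p and miR-551a arrays, and E2F1 read 85.2, 84.3 and 82.3, where the inferred mean background was 76.2, 80.6 and 79.0. CDC6 passed only through the overexpressing arrays, where it was brighter, so its direction follows from the filter. Intensities below are the deposited, non-normalized values. Differences are of log2 intensity after background correction and quantile normalization, and a gene is the mean of its detected probes. Where 1 array of a pair did not detect a probe, the difference is a lower bound in size on this background-corrected scale. It is written "at least", or for CCND2 "or a more negative value". It is no bound on the ratio of the intensities themselves, which was smaller for dim probes.

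Nearly all of the 38 measured members were higher in both overexpressing cultures than in the control culture. The members were chosen with earlier results of these data known. In the miR-483-5p array 37 of 38 members were higher, against 49.2% of 10849 measured genes, with a median log2 difference of 0.44 (1.36-fold) against 0.00 over all measured genes. The miR-551a array also had 37 of 38 members higher, against 49.0% of 11036 genes, with a median of 0.56 (1.47-fold) against -0.005 over all genes. At 1.5-fold, a log2 difference of 0.58, 6 members were higher and 0 lower in the miR-483-5p array, where 2.65% of all genes were higher and 2.53% lower. CDC6 is among these 6, and its place there follows from the filter. With only probes detected in all 3 arrays, 5 of 37 members passed this size, against 2.64% of all genes. With miR-551a, 16 members were higher by that size and 0 were lower, against 4.32% and 4.1% of all genes. At 2-fold, 0 members were higher in the miR-483-5p array (0.286% of all genes) and 2, MCM10 and GINS4, in the miR-551a array (0.58%). Both of these fell under 2-fold without background correction, at log2 differences of 0.86 and 0.79. Without background correction the members past 1.5-fold numbered 2 in place of 6 for miR-483-5p, against 0.876% of all genes, and 11 in place of 16 for miR-551a, against 1.95%. Median scaling in place of quantiles turned the miR-551a split of all genes to 5.86% higher and 3.09% lower, and 23 members then passed.

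The directions were much the same among brighter probes and without the detection filter. Among genes brighter than the median of measured genes, 32 of 33 members were higher in each array (50.6% of 5575 genes for miR-483-5p and 49.3% for miR-551a), with medians of 0.44 and 0.56. Among genes with a probe detected in all 3 arrays, 36 of 37 members were higher in each (50.4% and 49.1% of 9825 genes). With no detection filter, 38 of 40 members were higher in each (50% and 49.9% of all genes), with medians of 0.45 and 0.47.

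**Figure D1:**
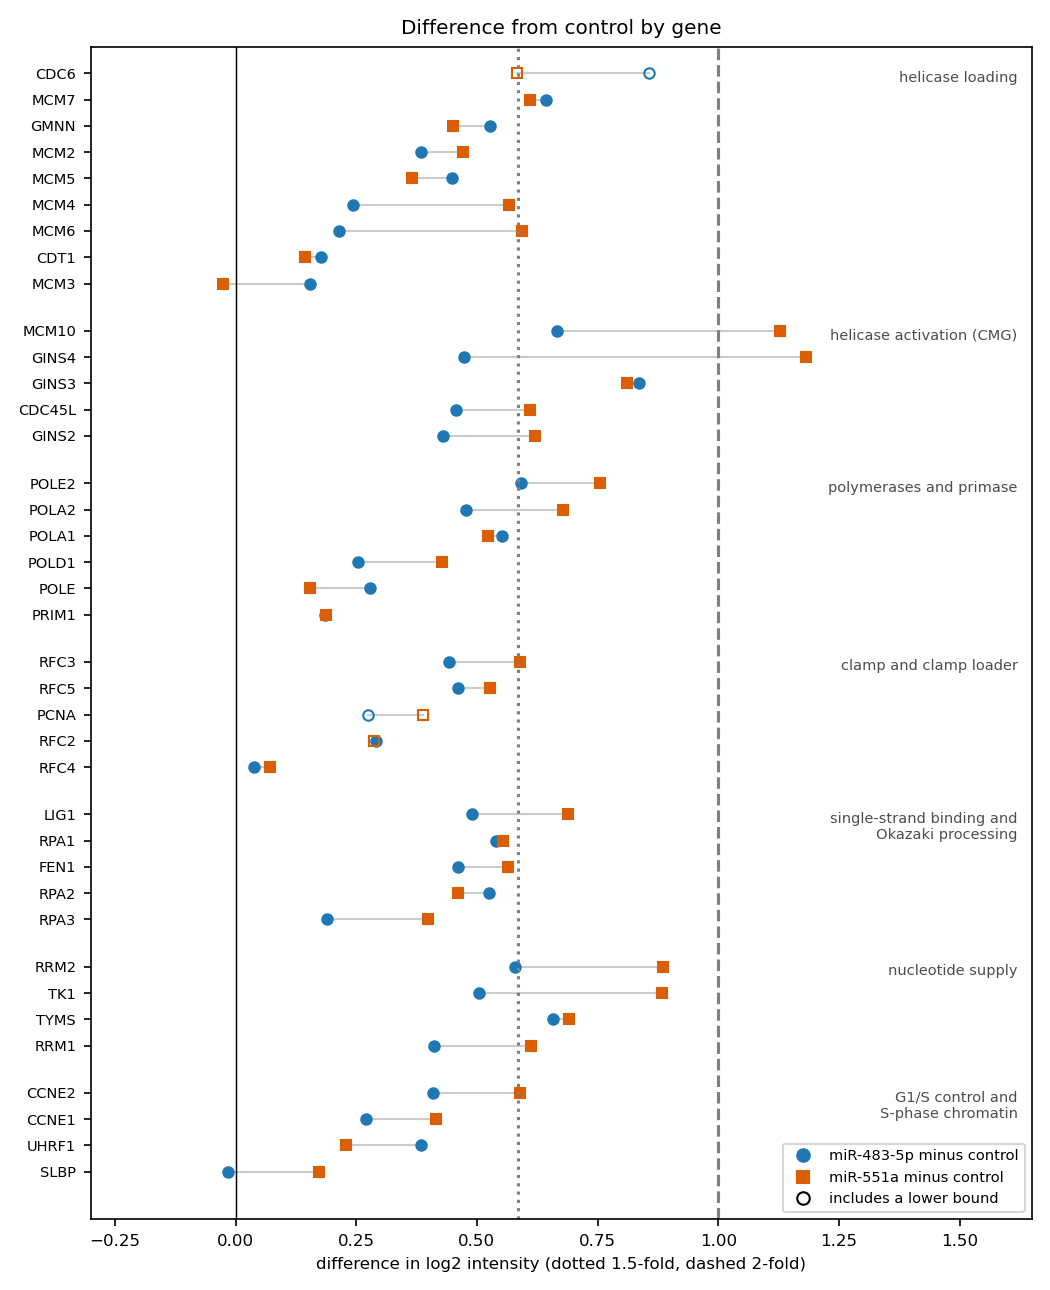
Difference in log2 intensity from control for each of the 38 measured members, grouped by role. Circles are miR-483-5p minus control and squares miR-551a minus control, open symbols include a probe with a lower bound only, and the dotted and dashed lines mark 1.5-fold and 2-fold. All points lie right of 0 except SLBP for miR-483-5p (-0.02) and MCM3 for miR-551a (-0.03), and MCM10 and GINS4 pass 2-fold for miR-551a. Neither MCM10 nor GINS4 passes 2-fold without background correction.

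Helicase loading was represented by 9 genes. All were higher in the miR-483-5p array (median 0.38) and 8 of 9 in the miR-551a array (median 0.47). Beside this count and those of the roles below, 49.2% and 49.0% of all measured genes were higher. CDC6, the loading ATPase, read 100.4 in control, below detection, 153 with miR-483-5p and 139.5 with miR-551a. It was higher by at least 0.86 (1.81-fold) with miR-483-5p and by at least 0.58 with miR-551a, just under the 1.5-fold size. These bounds hold after background correction, and without it the differences were 0.44 and 0.29. CDT1, its loading partner, read 607, 701 and 727 in control, miR-483-5p and miR-551a and differed by only 0.18 and 0.14. GMNN, the inhibitor of CDT1 that blocks relicensing in S phase, read 934, 1378 and 1382, with differences of 0.53 and 0.45. GMNN thus showed a larger difference than the CDT1 it restrains in both arrays.

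The MCM ring subunits did not all differ from control by the same amount. MCM7 led them: its bright probe read 3193, 4933 and 5285 in control, miR-483-5p and miR-551a, and its dimmer detected probe 252, 375 and 367. The mean differences were 0.64 (1.56-fold) and 0.61 (1.53-fold), and both probes passed 1.5-fold in both arrays. MCM2 read 682, 907 and 1011 (0.38 and 0.47), and MCM5 705, 982 and 979 (0.45 and 0.37). MCM6 read 3396, 4239.8 and 5611, and MCM4 863, 1066 and 1357 at its brighter probe. Both of these genes were nearer to control with miR-483-5p (0.21 for MCM6 and 0.24 for MCM4) than with miR-551a (0.59 and 0.57). The 2 MCM4 probes gave almost equal values, 0.26 and 0.22 with miR-483-5p and both 0.57 with miR-551a. MCM3 stood apart from the other subunits, with its brightest probe at 8173, 8327 and 7869 and mean differences of 0.15 and -0.03.

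Helicase activation genes had the largest median difference of any role with miR-551a, and the third largest with miR-483-5p. All 5 measured genes were higher in both arrays, with medians of 0.47 for miR-483-5p and 0.81 for miR-551a. All 5 passed 1.5-fold with miR-551a, where 4.32% of all measured genes did. MCM10 read 474, 745 and 1033 in control, miR-483-5p and miR-551a at its brighter probe and 132, 174 and 225 at the other. Its probes gave log2 differences of 0.68 and 0.65 with miR-483-5p and of 1.11 and 1.15 with miR-551a, and the gene was 1.59-fold and 2.19-fold higher. GINS4 read 145, 180.2 and 261, and was 1.39-fold higher with miR-483-5p and 2.27-fold with miR-551a. Without background correction the GINS4 differences were 0.29 in place of 0.47 and 0.79 in place of 1.18. The miR-551a difference of MCM10 was then 0.86 in place of 1.13. GINS3 read 362, 609.5 and 627 and differed about equally in both, 1.79-fold and 1.75-fold. GINS2 read 1288, 1793 and 2135, with differences of 0.43 and 0.62, and CDC45 (listed as CDC45L) 909, 1268 and 1491.5, with 0.46 and 0.61. For MCM10, GINS4, GINS2 and CDC45 the order was control, miR-483-5p, miR-551a, whereas for GINS3 the overexpressing arrays were level.

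**Figure D2:**
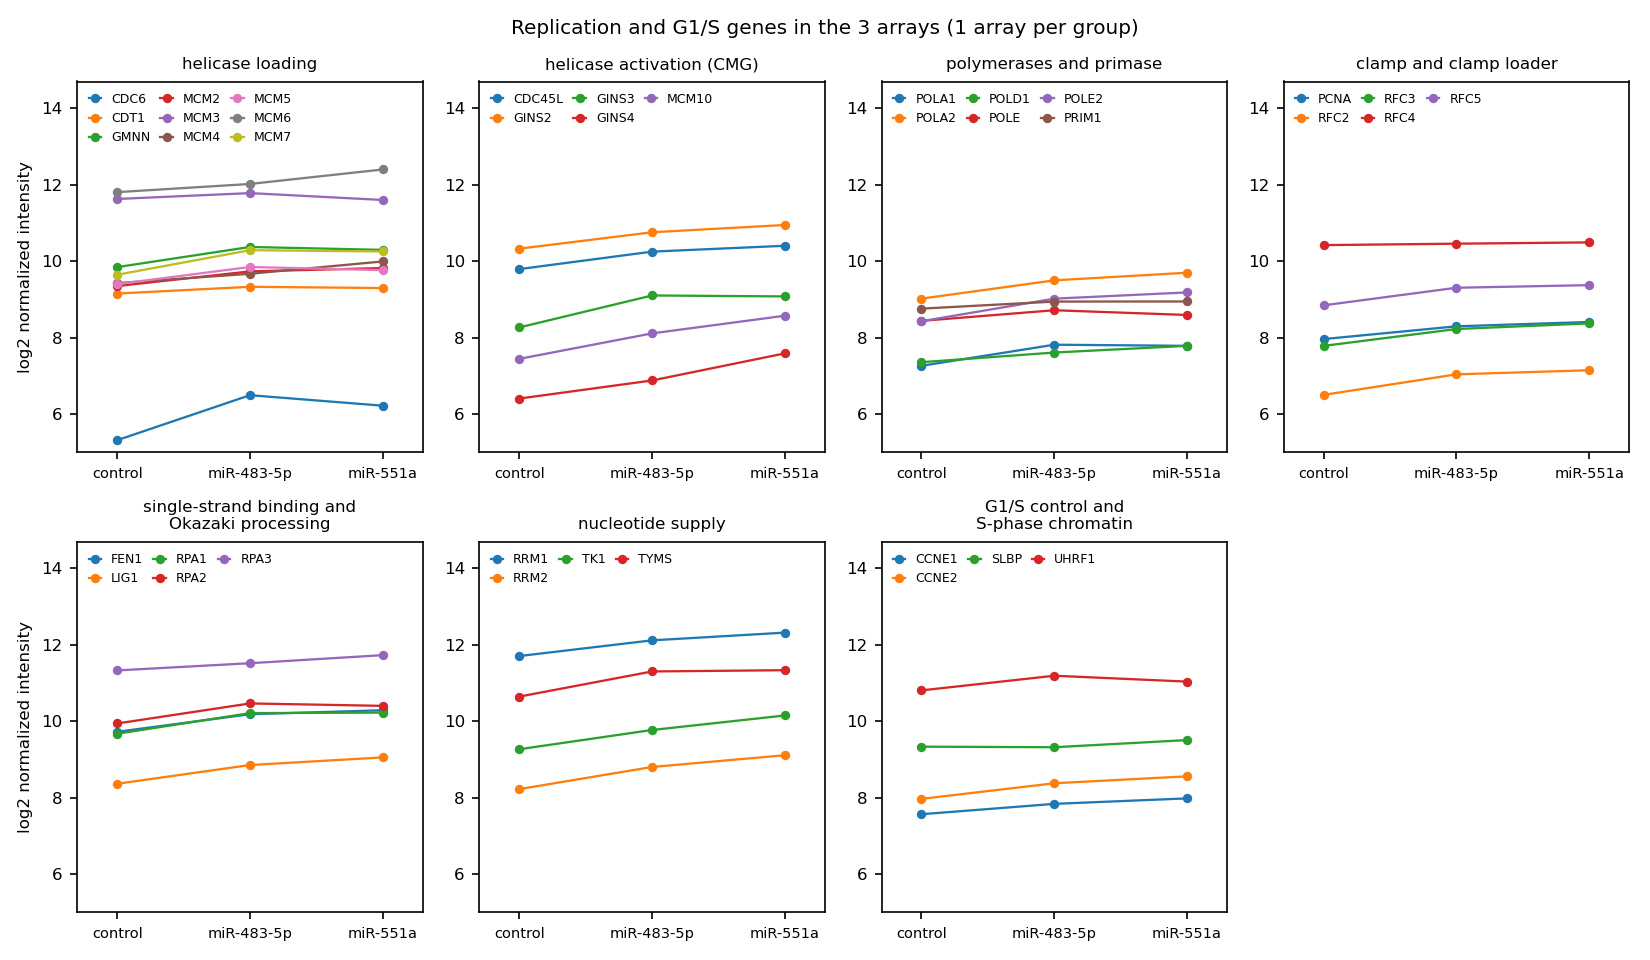
Log2 normalized intensity of each measured member (the mean of its probes detected in at least 1 array) in the control, miR-483-5p and miR-551a arrays, 1 panel per role. Values below detection are plotted as measured, so the lines of CDC6, PCNA and RFC2 climb more than the differences given in the text. Each line is 1 gene in 1 array per group, and levels of different genes are not comparable because probes differ. CMG stands for the complex of CDC45, MCM2 to MCM7 and GINS. Most lines climb from control to both overexpressing arrays, whereas MCM3, RFC4 and SLBP are close to flat.

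Among polymerases and primase, all 6 measured genes were higher in both arrays (medians 0.38 and 0.48). POLE2, the second subunit of polymerase epsilon, read 393, 577 and 672 in control, miR-483-5p and miR-551a and was 1.51-fold and 1.69-fold higher. The catalytic subunit POLE read 395, 479 and 464, with differences of 0.28 and 0.15. POLA2, the accessory subunit of polymerase alpha, read 562, 781 and 937 (0.48 and 0.68), and the catalytic POLA1 213, 287 and 292 (0.55 and 0.52). POLD1, catalytic in polymerase delta, read 222, 258 and 292 (0.25 and 0.43). The primase PRIM1 had 2 probes that differed from each other, at 0.30 and 0.07 with miR-483-5p and at 0.12 and 0.25 with miR-551a.

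The clamp and its loader were the nearest to control with miR-483-5p among these roles. PCNA, the sliding clamp, read 5328, 5497 and 6972.5 at its brightest probe, a difference of 0.03 with miR-483-5p and 0.32 with miR-551a. Its 2 dim probes, between 104.8 and 161.7, differed by 0.41 and at least 0.38 with miR-483-5p and by 0.54 and at least 0.31 with miR-551a, so the bright and dim probes did not match for miR-483-5p. Over its probes PCNA differed by 0.27 and 0.39, and by 0.15 and 0.25 without background correction. RFC3, a small subunit of the loader, read 259.6, 366 and 410.5 at 1 probe and 294, 351 and 407.5 at the other, and its relative RFC5 read 507, 689.7 and 762. They were higher by 0.44 and 0.46 with miR-483-5p and by 0.59 and 0.53 with miR-551a. RFC2 read 327, 392 and 421 at its brighter probe, with differences of 0.29 and 0.34. RFC4 was close to control at both probes, between -0.09 and 0.16 with miR-483-5p and between -0.03 and 0.17 with miR-551a.

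Of the single-strand binding and lagging strand genes, all 5 were higher in both arrays, with medians of 0.49 and 0.55. RPA1, the large subunit of RPA, read 1672, 2517 and 2589.6 at its brighter probe and differed by 0.54 and 0.55, RPA2 read 995, 1466 and 1494 and differed by 0.52 and 0.46, and the small subunit RPA3 differed by 0.19 and 0.40. The flap nuclease FEN1 read 1678, 2438 and 2687 at its brighter probe, with gene differences of 0.46 and 0.56, and its probes lay 0.04 apart with miR-483-5p and 0.07 apart with miR-551a. DNA ligase LIG1 read 381, 521 and 619.7 and was 1.40-fold and 1.61-fold higher.

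Nucleotide supply genes were all higher by at least 1.5-fold in the miR-551a array (4 of 4, median 0.79), and 1 of 4, TYMS, in the miR-483-5p array (median 0.54). Of all measured genes, 4.32% with miR-551a and 2.65% with miR-483-5p were higher by that size. TYMS, thymidylate synthase, read 1576, 2570.5 and 2804 in control, miR-483-5p and miR-551a and was 1.58-fold and 1.61-fold higher. RRM2, the regulated subunit of ribonucleotide reductase, read 355, 505 and 642 and was 1.49-fold and 1.85-fold higher, the first just below the 1.5-fold size. Its partner RRM1 read 3223, 4473 and 5328, with 1.33-fold and 1.53-fold. TK1, the cytosolic thymidine kinase that salvages thymidine in S phase, read 653, 933 and 1258 and was 1.42-fold and 1.84-fold higher. Except for TYMS, where the overexpressing arrays differed by 0.03, the miR-551a values lay above the miR-483-5p values by 0.20 for RRM1, 0.31 for RRM2 and 0.38 for TK1.

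Genes of G1/S control and S-phase chromatin showed smaller differences, with medians of 0.33 and 0.32 over 4 measured genes. Cyclin E2, CCNE2, which activates CDK2 at S-phase entry, read 305, 393 and 457 and was higher by 0.41 and 0.59. CCNE1 was measured by 3 probes that spread widely, from -0.05 to 0.51 with miR-483-5p and from 0.21 to 0.65 with miR-551a. UHRF1, which guides maintenance methylation behind the fork, read 1753, 2390.0 and 2288, with 0.38 and 0.23. SLBP, which binds histone mRNAs, had probes at -0.18 and 0.15 with miR-483-5p and at 0.11 and 0.23 with miR-551a.

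The only measure of spread was the gap between the differences given by probes of 1 gene. For 12 members with several probes detected in all 3 arrays, the gap had a median of 0.21 and ran from 0.01 (RPA1) to 0.56 (CCNE1) with miR-483-5p, and had a median of 0.13 and ran from 0.003 (MCM4) to 0.44 (CCNE1) with miR-551a. This gap is not replicate error. A shift shared by all probes of a gene does not show in it. A difference larger than the gap is therefore not shown to repeat between cultures. The largest gene differences, those of MCM10 and GINS4 with miR-551a, exceeded the largest gap, though GINS4 rests on 1 probe. The differences of CDT1, MCM3, PRIM1, RFC4 and SLBP lay at or under 0.19 in both arrays.

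The overexpressing arrays were closer to each other than to control, over all measured genes and not only over the members. Against control, 2.65% of all genes were at least 1.5-fold higher and 2.53% lower with miR-483-5p. The shares with miR-551a were 4.32% and 4.1%, and between the overexpressing arrays 0.998% and 0.934%. In the miR-551a array 27 of 38 members were above their value in the miR-483-5p array, against 48.1% of 10817 genes, with a median of 0.11 against 0.00. Only GINS4 passed 1.5-fold (1.63-fold), where 0.998% of all genes did, and 0 members were lower at that size, against 0.934%. MCM10 (0.46), MCM6 and TK1 (each 0.38), MCM4 (0.32) and RRM2 (0.31) followed, and CDC6 (-0.27), MCM3 (-0.18) and UHRF1 (-0.15) were lower with miR-551a.

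Replication genes outside the 41 showed smaller differences. On a further list of 42 symbols, 38 were measured, and 29 were higher with miR-483-5p (median 0.20) and 30 with miR-551a (median 0.33). Of all measured genes, 49.2% and 49.0% were higher. At 1.5-fold 5 and 6 of the list were higher and 0 lower, against 2.65% and 4.32% of all genes higher and 2.53% and 4.1% lower. TIPIN, of the fork protection complex, was 1.75-fold and 1.92-fold higher. ASF1B, a histone chaperone, differed by 0.92 and 0.83, RNASEH2A by 0.64 and 0.55, and DTL, the adaptor that marks CDT1 for destruction, by 0.39 and 0.66. DSCC1, of an alternative clamp loader, read 92.1 in control, below detection, 118 with miR-483-5p and 165.0 with miR-551a. Its direction, and its place in the count with miR-551a, therefore follow from the filter. Its background-corrected differences were at least 0.13 and at least 0.98, and 0.06 and 0.52 without background correction. ORC6 (listed as ORC6L) had a dim probe at 0.83 and 1.12 and a very bright one at 0.12 and 0.14. The polymerase epsilon subunit POLE3 differed by 0.45 and 0.55. Genes of this list that were lower in both arrays included POLD4, the small subunit of polymerase delta (-0.21 and -0.46), and RRM2B, the p53-induced reductase subunit (-0.17 and -0.24).

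Regulators of G1/S lay on both sides of control, with more of them higher than lower. Of 33 listed, 32 were measured for miR-483-5p and 30 for miR-551a, with medians of 0.15 in each. By any size, 23 and 21 were higher, against 49.2% and 49.0% of all genes. Among genes with a probe detected in all 3 arrays, 21 and 20 of 29 were higher (50.4% and 49.1% of all genes). At 1.5-fold, 2 and 3 of the measured regulators were higher (2.65% and 4.32% of all genes) and 2 and 3 lower (2.53% and 4.1%). Cyclin A2, CCNA2, read 1274, 2206 and 2579.9 (0.77 and 0.91), and the phosphatase CDC25A, which activates CDK2, 262, 414 and 451 (0.78 and 0.86). RBL1, a pocket protein that is itself an E2F target, read 106.1 in control, below detection, 128 with miR-483-5p and 157 with miR-551a. It was measured only through the arrays where it was brighter, so its direction, and its place in the count with miR-551a, follow from the filter. Its background-corrected differences were at least 0.40 and at least 0.88, and 0.19 and 0.45 without background correction. CDKN1A, the CDK inhibitor p21, read 1746, 1258 and 1105 and was lower by 1.49-fold and 1.80-fold. The cyclin CCND2 read 333, 230.2 and 222 at its brighter probe. With miR-483-5p, where 1 of its probes was undetected, the background-corrected difference of the gene was -0.75 or a more negative value. With miR-551a it was -0.72. Without background correction these were -0.48 and -0.49, under 1.5-fold. CDK7, the CDK-activating kinase, read 779.5, 538.5 and 553 and was lower by 1.57-fold and 1.61-fold. CDKN2B was higher by 0.44 and 0.36, or by 0.26 and 0.21 without background correction, and E2F5 by 0.30 and 0.40.

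Mitosis genes, which act after replication, had medians close to those of the members, 0.44 and 0.58. Of 39 measured, 35 and 39 were higher (49.2% and 49.0% of all genes) and 9 and 19 past 1.5-fold (2.65% and 4.32%). KIF23 (0.88 and 0.95), MAD2L1 (0.70 and 1.12), BIRC5 (0.80 and 0.86), CDC20 (0.65 and 0.89), CENPE (0.73 and 0.80), CCNB1 (0.58 and 0.89) and KIF20A (0.62 and 0.84) led them. CENPE had a dimmer probe at 1.06 and 1.14 and a brighter one at 0.39 and 0.45. MKI67 read 102.1 in control, below detection, 141 with miR-483-5p and 149 with miR-551a, so its direction follows from the filter, and it is among the 9 and the 19. Its background-corrected differences were at least 0.66 and at least 0.74, and 0.33 and 0.37 without background correction. Heat shock genes were higher as well, 12 of 12 and 11 of 12 (49.2% and 49.0% of all genes), with medians of 0.40 in each. HSPA1B (0.66 and 0.78), DNAJB1 (0.50 and 0.74), HSPH1 (0.40 and 0.75) and HSPA4 (0.53 and 0.56) led them. HSPA4 had a dim probe, at 110.9 in control, with 1.035 and 1.06, and 2 brighter probes between 0.24 and 0.40. Without background correction HSPA4 differed by 0.36 and 0.39. The next were HSPA8 (0.47 and 0.49), DNAJA1 (0.40 and 0.44), BAG3 (0.48 and 0.32) and HSP90AA1 (0.40 and 0.36). Their part in the difference of the replication genes was not tested.

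**Figure D3:**
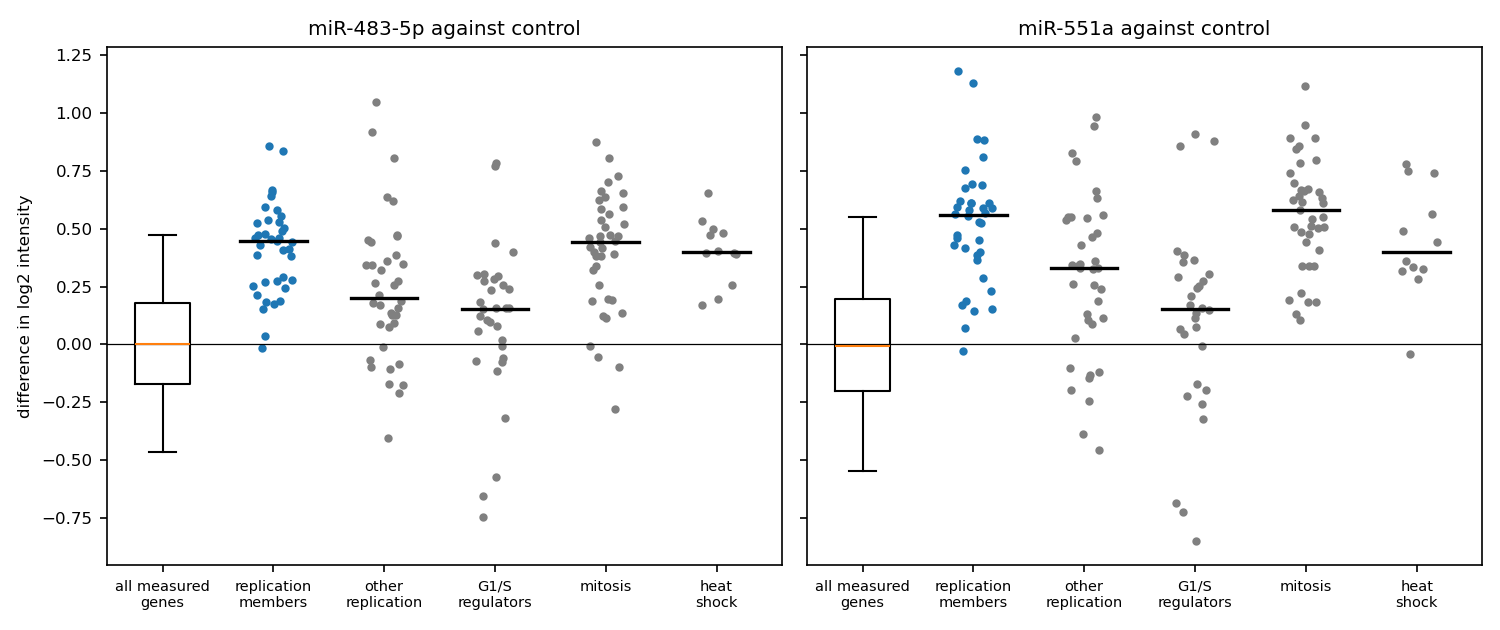
Difference in log2 intensity from control for miR-483-5p (left) and miR-551a (right). The box gives the median, quartiles and the 5 and 95 percentiles over all measured genes, each point is 1 gene of a list and black bars are list medians. Replication members (medians 0.44 and 0.56) and mitosis genes (0.44 and 0.58) lie mostly above 0. G1/S regulators (0.15 in each) lie on both sides of 0, with more of them above than below.

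**Figure D4:**
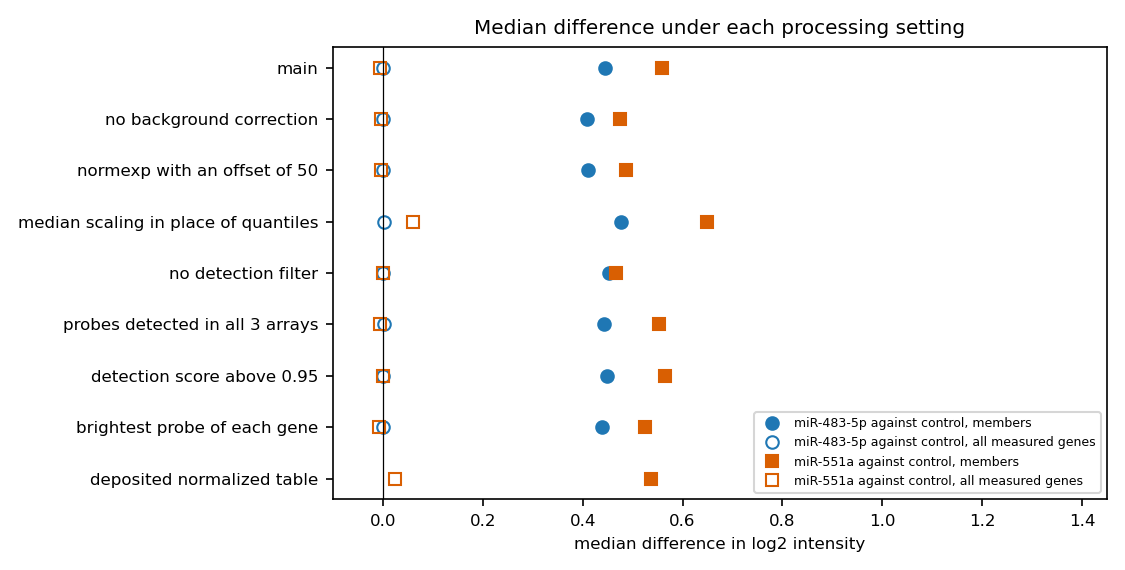
Median difference in log2 intensity from control of the members (filled) and of all measured genes (open) under each processing setting, circles for miR-483-5p and squares for miR-551a. Member medians stay between 0.41 and 0.48 for miR-483-5p and between 0.47 and 0.65 for miR-551a, whereas the medians of all measured genes stay at or below 0.06. The deposited normalized table has no usable miR-483-5p column.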

How the data were processed

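Total RNA of 3 LvM3b cultures was hybridized to Illumina bead arrays, 1 per group. The authors deposited non-normalized intensity values for 48803 probes, each with a detection score, a fraction from 0 to 1 per the file headers; the scanner software is not given in the sources used here. They also deposited a normalized intensity table, whose miR-551a column is the non-normalized one times 0.968. Its column named for miR-483 is the non-normalized miR-551a column times 0.934, so it was not used; the series matrix holds the same values.

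The 3 arrays were normalized jointly by the neqc function (limma 3.58.1, R 4.3.3; background from detection scores, offset 16, quantiles, log2). A probe was detected above a score of 0.99. A gene is the mean of its probes detected in at least 1 array; targets given only as UniGene clusters were left out, leaving 25200 symbols, 11151 of them measured. A dim value under the lowest detected level of its array was raised to that level, which gives "at least". Older symbols were matched to RefSeq (GRCh38.p14). With 1 array per group no test was made, and array number limits the precision. The steps were run on simulated data with differences planted only in probes well above detection. Recovery of differences at dim probes, and the lower bounds, were not tested there.

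The members and lists were chosen with earlier results of these data known. Every member is accounted for; members at 1.5-fold or more in either comparison are given with their intensities, and up to 8 genes of each further list are named by the largest absolute mean difference. 1 gene of the further replication list and 1 marker are not reported here by name. POLD4 and RRM2B were chosen after their values were seen. Alternatives changed the background correction, normalization, detection filter and probe summary.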

Additional observations from a re-analysis of the deposited data

How the results depend on the processing

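Each result was recomputed with no background correction, normexp with an offset of 50, median scaling, no detection filter, probes detected in all 3 arrays, a detection score of 0.95 and the brightest probe of each gene, and for miR-551a also from the deposited normalized table. A value counted as moved past 1.5 times its main value. Of 37 recomputed summary values of the members, 34 stayed within this. The count of members at least 1.5-fold higher with miR-483-5p moved from 6 to 2 with no background correction and to 2 with normexp, settings that by construction keep or add a constant in the intensities and so shrink ratios. The median of miR-551a against miR-483-5p moved from 0.11 to 0.18 under median scaling, where the median of all genes was itself 0.06; the cause was not tested. Member medians ranged from 0.41 to 0.48 for miR-483-5p and from 0.47 to 0.65 for miR-551a, and the members past 1.5-fold with miR-551a from 11 to 23. No member or named gene at 1.5-fold or more changed sign under these settings. CDC6, dim in control, ran from 0.44 to 1.18 and from 0.29 to 0.90. Differences of PCNA, GINS4, RBL1, MKI67, DSCC1, CCND2 and CDKN2B also shrank by over 1.5 times without background correction, in at least 1 comparison each. Median scaling moved the share of all genes that were higher with miR-551a from 49.0% to 58.2%, and of those past 1.5-fold it gave 5.86% higher and 3.09% lower in place of 4.32% and 4.1%; all 38 members were then higher. No paired analysis was possible because each group had 1 array. Members near background (GINS1, E2F1) could not be measured, and ratios of dim probes are the least certain.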
